A study of Mus musculus with 18 samples.

Results

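The genes described here were the very long genes of the mouse striatum, defined as every gene of the deposited count table whose genomic span, from the smallest exon start to the largest exon end, was 500000 bases or more and whose counts summed to 100 or more over the 18 libraries. The rule chose 227 of the 55421 genes in the table. Another 12 genes of that span had fewer counts and were left out. The libraries were total RNA of dissected striatum from mice of 12 to 14 months on the C57BL/6 background, perfused under anaesthesia before dissection. The groups were 5 WT mice, 5 zQ175 mice, 3 CK2a'(+/-) mice and 5 zQ175:CK2a'(+/-) mice. The zQ175 mouse is a knock-in model of Huntington's disease that carries an expanded CAG repeat in its own huntingtin gene in every cell, and the study used heterozygotes. CK2a'(+/-) mice lack 1 allele of the gene for CK2a' (Csnk2a2), a catalytic subunit of protein kinase CK2, also in every cell, and zQ175:CK2a'(+/-) mice carry both changes. No group received a drug.

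Very long genes make long demands on transcription, because RNA polymerase II has to cross almost nothing but intron before it completes a single transcript. They are expressed mainly in the brain, and many of them code for adhesion molecules, ion channels, receptors and scaffolds of the synapse. Topoisomerases, elongation factors and several RNA-binding proteins are known to matter for transcripts with long introns, and several of the longest genes coincide with common fragile sites of the chromosomes.

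The 227 genes had a median span of 721146 bases, with a range of 501751 to 2960899, and their exons made up a median of 1.26% of that span. Among the 20687 other genes tested, exons made up a median of 25.8%. Long genes were also long once spliced, with a median exonic length of 10248 bases in 23 exon blocks against 3406 bases in 6 blocks for the others. Of the 227 genes, 221 were protein coding (97.4%), against 14453 of the 20687 others (69.9%), and 12 lay on the X chromosome. The 6 non-coding genes were 3 processed transcripts, 2 lincRNAs and 1 antisense transcript. Spans of 1000 kb or more were found for 58 genes. The gene of largest span, Fgfr2 (fibroblast growth factor receptor 2, chromosome 7, 130162451 to 133123350, GRCm38), owed most of its 2960899 bases to a single gap of 2815493 bases between exon blocks, and 27 of the 227 genes had a gap that took more than 50% of the span. On the side just inside the limit lay Edil3 (501751 bases), Dock1 (502985) and Car10 (503721), and just outside it lay Dnm3 (495581), Cacna1e (493770) and Gabrb1 (490924). Per length, the long genes stood at a median of 5.83 RPKM (CPM, that is counts scaled by the TMM library size, per kilobase of exon), against 2.66 for the other genes tested.

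Promoters of 177 of the 227 genes were found in the RefSeq table for GRCm38.p6, as 287 windows that run from 250 bases before to 50 bases after a transcription start. These windows were poorer in CpG than those of other protein-coding genes. Of the long-gene promoters, 38.7% had the composition of a CpG island, here a GC content of 50% or more with an observed-to-expected CpG ratio of 0.6 or more, against 61.5% of the 14300 promoters of other protein-coding genes tested and 33.3% of all 32851 promoters in the table. The GC box GGGCGG, searched on both strands, lay in 41.8% of long-gene promoters, in 60.3% of those of other protein-coding genes and in 35.7% of all promoters. The TATA box TATAAA lay in 10.1% of them, 7.41% and 13.6%, and the cAMP response element TGACGTCA in 0.697%, 2.91% and 1.79%, in the same order.

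The following 4 sequences are the RefSeq promoters of the long genes that passed the test between zQ175 and WT mice and were found in the table, printed 5′ to 3′ with every CpG in capitals, to show how far these windows differ in CpG. The Clstn2 window (chr9:98033118-98033417, minus strand) held 43 CpG, a GC box and a cAMP response element. The Epha6 window (chr16:60605482-60605781, minus strand) held 15 CpG and a GC box. The Gm20754 window (chr3:73066101-73066400, plus strand) held 8 CpG, and the Snhg14 window (chr7:60450128-60450427, minus strand) held 2, both without any of the 3 motifs. The Snhg14 start of RefSeq lay 474418 bases upstream of the first base of the deposited gene, whose span of 667835 bases was then only a part of that transcription unit.
Clstn2: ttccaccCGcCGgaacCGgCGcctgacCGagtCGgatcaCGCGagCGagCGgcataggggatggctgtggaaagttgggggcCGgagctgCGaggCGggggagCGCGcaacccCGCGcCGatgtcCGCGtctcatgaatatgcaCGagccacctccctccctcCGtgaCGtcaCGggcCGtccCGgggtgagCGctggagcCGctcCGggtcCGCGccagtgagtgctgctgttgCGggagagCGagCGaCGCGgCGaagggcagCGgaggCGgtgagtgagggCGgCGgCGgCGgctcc
Epha6: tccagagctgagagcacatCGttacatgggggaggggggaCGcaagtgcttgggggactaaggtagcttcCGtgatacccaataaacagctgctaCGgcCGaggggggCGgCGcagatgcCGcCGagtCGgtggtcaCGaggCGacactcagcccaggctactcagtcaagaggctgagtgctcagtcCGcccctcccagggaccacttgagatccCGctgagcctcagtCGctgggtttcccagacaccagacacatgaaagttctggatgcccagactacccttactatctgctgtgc
Gm20754: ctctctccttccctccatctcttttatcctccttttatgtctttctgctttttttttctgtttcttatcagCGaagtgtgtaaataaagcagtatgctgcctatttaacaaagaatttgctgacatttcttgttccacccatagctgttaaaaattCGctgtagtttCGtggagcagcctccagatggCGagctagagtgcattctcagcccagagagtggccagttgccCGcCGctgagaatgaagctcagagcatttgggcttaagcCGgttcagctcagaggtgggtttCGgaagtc
Snhg14: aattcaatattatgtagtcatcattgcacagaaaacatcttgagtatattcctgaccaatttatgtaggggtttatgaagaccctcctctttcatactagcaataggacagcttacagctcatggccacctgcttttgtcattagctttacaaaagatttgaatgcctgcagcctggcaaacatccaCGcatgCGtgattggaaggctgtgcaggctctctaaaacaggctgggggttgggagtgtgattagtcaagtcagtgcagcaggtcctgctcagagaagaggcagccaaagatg

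Libraries held 13612381 to 22702547 counts, of which 19.0% to 26.0% fell on mitochondrially encoded genes. Csnk2a2 checked the labels of the CK2a' genotype, but not those of the zQ175 allele. It stood at 31.6 ± 2.26 CPM (SD, n = 5) in WT and 35.0 ± 2.29 (n = 5) in zQ175 mice. In CK2a'(+/-) mice it stood at 16.7 ± 1.78 (n = 3) and in zQ175:CK2a'(+/-) mice at 17.6 ± 1.64 (n = 5). Xist, which females express, stood above 900 CPM in 4 of 5 WT mice, 2 of 5 zQ175 mice, 1 of 3 CK2a'(+/-) mice and 4 of 5 zQ175:CK2a'(+/-) mice, and at 47.0 CPM in zQ175 replicate 3 against 0.498 to 8.17 CPM in the other 6. Markers of striatal projection neurons were present in every library, but the dissections were not uniform. The summed level of 9 markers of cortical excitatory neurons ran from 107 to 183 CPM in WT mice and from 156 to 404 CPM in zQ175 mice, highest in zQ175 replicates 5 (404) and 1 (314). All 9 lay above WT, and 2 passed the test (Tbr1 and Nr4a2). The 13 projection neuron markers all lay below WT in zQ175 mice and 4 passed, with a summed level of 1776 to 3518 CPM against 3175 to 7682 in WT. Of 7 oligodendrocyte markers 5 fell, and of 7 microglia markers 1 fell. None of the markers of interneurons (8), astrocytes (7), oligodendrocyte precursors (5), endothelial cells and pericytes (6) or choroid plexus (5) passed. Choroid plexus markers summed to 975 to 3083 CPM in WT replicates 1 and 3, CK2a'(+/-) replicate 1 and zQ175:CK2a'(+/-) replicate 2, and to 11.5 to 21.6 CPM in the other 14 mice. The part that these differences in cell content had in the results that follow was not tested. In whole tissue, fewer cells of a type and less RNA per cell cannot be told apart.

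The comparison of zQ175 with WT mice asked which transcripts differ in the striatum of the disease model. The long genes lay towards the zQ175 side as a class, by a small amount. Their log2 fold change had a median of 0.12 with quartiles of -0.028 and 0.26, and 166 of 227 (73.1%) lay above 0. Among 19490 other genes in the same 5 bands of mean count, weighted to the long genes' numbers in each band, 51.8% lay above 0 and the median was 0.0082. Few of the long genes passed the test one by one. By edgeR at an adjusted p under 0.1, 5 of 227 rose (2.20%) and 0 fell, against 1.1% of all 20914 genes tested called in either direction, 0.387% of them higher in zQ175, and 1.93% of the other genes in the same count bands. The unadjusted p was under 0.05 for 41 (18.1%), against 13.9% of all genes and 19.9% of the others in the same count bands. In each of the 5 count bands the median of the long genes lay above that of the others, by the least where the mean count was 82.2 to 165 CPM (0.058 against 0.024) and by the most at 12.7 to 35.7 CPM (0.18 against -0.016).

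The position of the long genes differed between mice of a group as well as between groups. The offset of a mouse was taken as the median, over the 227 genes, of log2 CPM minus that gene's mean over all 18 mice. In WT mice the offset was -0.066, 0.063, -0.11, -0.085 and -0.10, in order of replicate number. In zQ175 mice it was 0.087, 0.053, 0.055, 0.062 and -0.0092. WT replicate 2 lay inside the zQ175 range and zQ175 replicate 5 below the other 4 zQ175 mice, so the groups overlapped. The offset was 0.061, -0.0040 and -0.068 in CK2a'(+/-) mice and 0.049, 0.018, -0.0075, -0.066 and -0.015 in zQ175:CK2a'(+/-) mice. Both of these groups reached across 0. As a share of all counts, the long genes took 2.48% ± 0.159 (SD, n = 5) in WT, 2.64% ± 0.127 (n = 5) in zQ175, 2.64% ± 0.137 (n = 3) in CK2a'(+/-) and 2.59% ± 0.0720 (n = 5) in zQ175:CK2a'(+/-) mice, and the 4 groups overlapped. Without WT replicate 2 the median difference was 0.14, without zQ175 replicates 1 and 5 it was 0.085 with 176 of 227 above 0, and without the 4 mice of high choroid plexus markers it was 0.095 with 155 above 0. No gene of the 20688 tested passed without zQ175 replicates 1 and 5, and none of the 227 without those 4 mice.

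**Figure D1:**
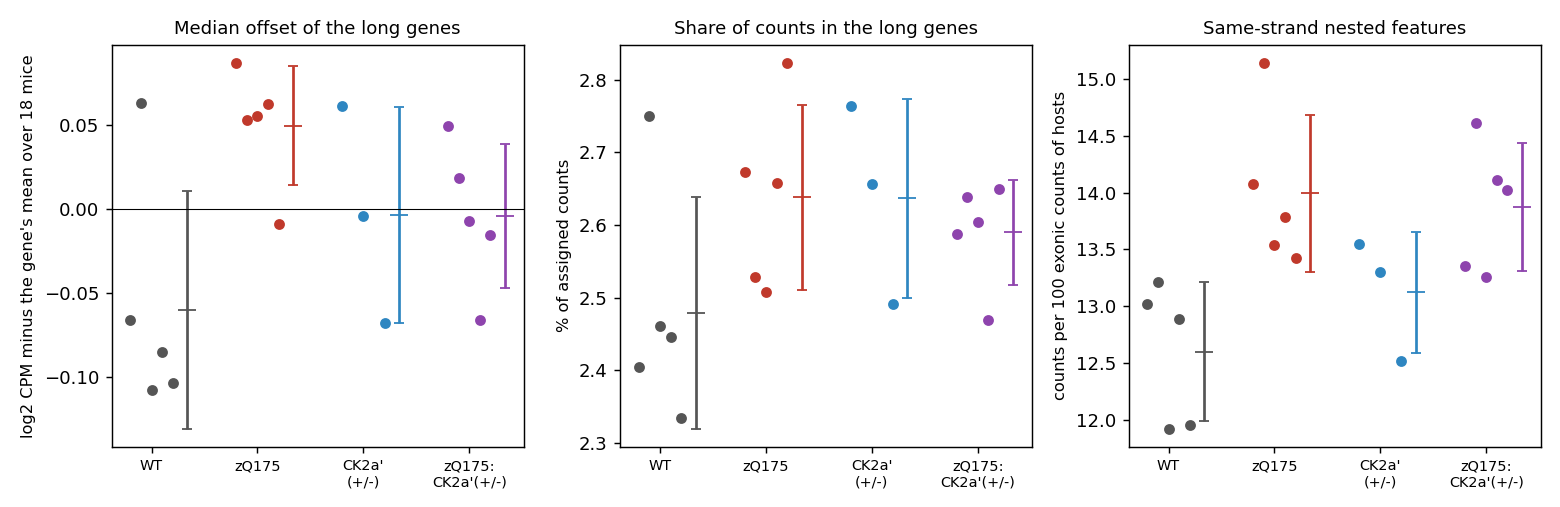
Each point is a mouse of the 4 groups, and the bar beside them gives the group mean ± SD. The panels show the median offset of the 227 long genes on the log2 scale, their share of all counts in percent, and the counts on same-strand features nested in long genes per 100 exonic counts of their hosts. WT replicate 2 (0.063) stood above the other 4 WT mice (-0.11 to -0.066) in the first panel.

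In zQ175 against WT, long genes stood at the end of a gradient that ran over all spans. Here the median log2 fold change was -0.040 in the 8723 genes under 10 kb, -0.030 from 10 to 30 kb, 0.040 from 30 to 100 kb, 0.064 from 100 to 200 kb, 0.098 from 200 to 500 kb and 0.12 in the 228 genes tested at 500 kb or more, 1 of which had too few counts to be among the 227. Restricted to protein-coding genes at the count level of the long genes, the medians ran from -0.13 through -0.027, 0.043, 0.067 and 0.088 to 0.12. With exonic length also held between 5 and 20 kb the low medians of the shorter genes came closer to 0, and the 6 medians were 0.0018, 0.018, 0.067, 0.079, 0.11 and 0.11. Single mice did not all follow their group. The median offset went from -0.0064 in the shortest band to 0.064 in the longest in WT replicate 2, and in zQ175 replicate 5 the 6 bands had offsets of -0.016, 0.015, 0.041, 0.025, 0.024 and -0.011. Within the 227 genes span no longer ordered the change, with a median of 0.13 in the 58 genes of 1000 kb or more and 0.12 in the other 169, and a Spearman rho of -0.034 across genes, which share libraries and are not independent. Less abundant long genes lay somewhat higher, with a rho of -0.22 between mean CPM and the change. In zQ175:CK2a'(+/-) against WT the same bands had medians of -0.035, -0.026, 0.018, 0.017, 0.027 and 0.031. CK2a'(+/-) mice, which lack the disease allele, had medians against WT of -0.027, -0.021, 0.0096, 0.025, 0.033 and 0.047, but the 3 mice differed. From the shortest to the longest band the median offset of a mouse went from -0.00060 to 0.062 in replicate 1, from -0.0018 to -0.0032 in replicate 2 and from 0.076 to -0.066 in replicate 3. Without replicate 1 the value for the 227 genes was 0.011, and without the 4 mice of high choroid plexus markers -0.018. The medians of zQ175:CK2a'(+/-) against CK2a'(+/-) did not rise with span, at -0.0084, 0.0030, 0.015, 0.0098, 0.0047 and -0.0063.

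**Figure D2:**
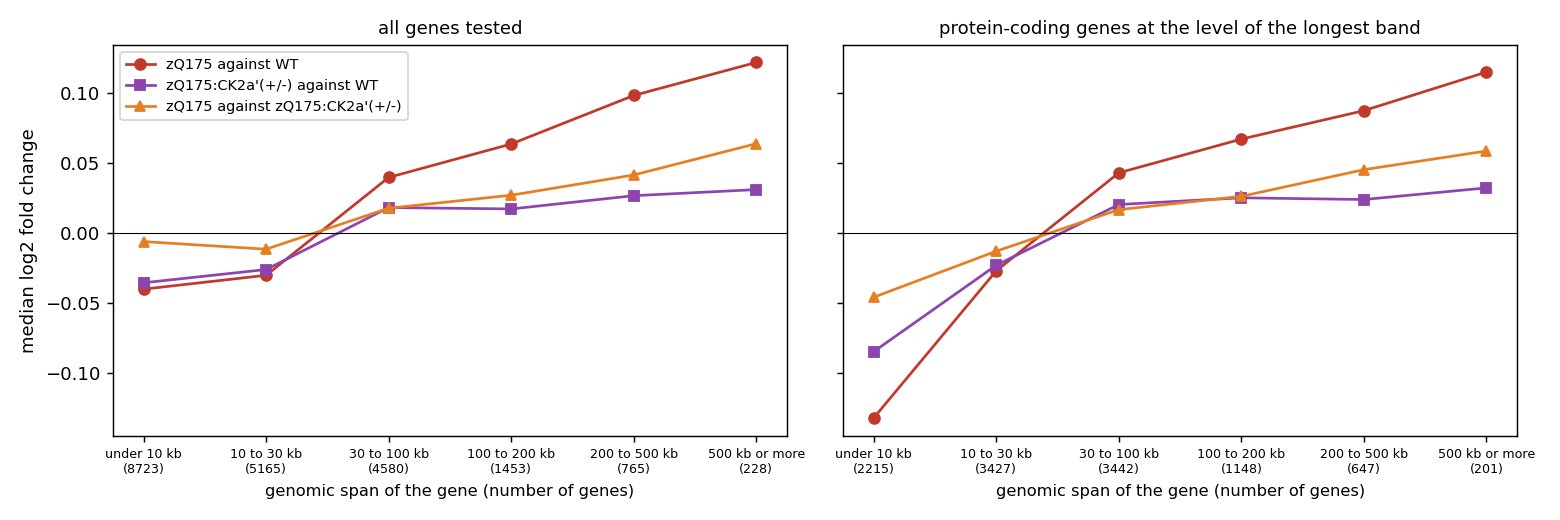
The median log2 fold change is plotted against genomic span in 6 bands, with the number of genes under each band, for all genes tested (left) and for protein-coding genes at or above the 10th percentile of the long genes' level (right). Each line is a comparison, and zQ175 against WT reached 0.12 in the band of longest genes in both panels.

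The 5 long genes that passed between zQ175 and WT were a snoRNA host transcript, an adhesion molecule, a microtubule-associated protein, a lincRNA and a receptor tyrosine kinase. Snhg14 (ENSMUSG00000100826, chromosome 7, 59307924 to 59975759) is the host of the Snord115 and Snord116 snoRNA clusters and the antisense transcript of Ube3a. It stood at 246, 249, 220, 260 and 253 CPM in WT mice and at 375, 337, 295, 304 and 305 CPM in zQ175 mice. Each zQ175 mouse exceeded each WT mouse, and the log2 fold change was 0.40 (SE 0.0821, edgeR adjusted p = 0.0469). In zQ175:CK2a'(+/-) mice Snhg14 stood at 274 to 306 CPM, also above every WT mouse, with a log2 fold change of 0.25 (SE 0.0820) that did not pass (edgeR adjusted p = 0.381). CK2a'(+/-) mice, at 219 to 287 CPM, overlapped WT and zQ175:CK2a'(+/-) mice and lay below every zQ175 mouse. Its exons overlap those of Ube3a on the other strand and of Gm38393 on its own strand, so reads of the latter could be split between the 2 genes. Snhg14 was the 1 long gene of the 5 that also passed with the Xist level as a covariate (edgeR adjusted p = 0.0653).

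Clstn2 (ENSMUSG00000032452, chromosome 9, 97444395 to 98033181) codes for calsyntenin-2, a postsynaptic membrane protein of the cadherin superfamily. It stood at 32.1, 39.3, 44.3, 41.7 and 35.9 CPM in WT mice and at 83.3, 42.6, 47.8, 47.7 and 96.0 CPM in zQ175 mice. The difference lay mostly in zQ175 replicates 1 and 5, the mice of highest cortical marker level, while replicate 2 fell below the highest WT mouse. The log2 fold change was 0.72 (SE 0.175, edgeR adjusted p = 0.0782). In CK2a'(+/-) mice its mean was 47.4 ± 6.62 CPM (SD, n = 3) and in zQ175:CK2a'(+/-) mice 43.0 ± 2.90 CPM (n = 5).

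Nav3 (ENSMUSG00000020181, chromosome 10, 109681259 to 110456204), neuron navigator 3, binds microtubules. Its levels were 81.9, 80.6, 84.2, 87.9 and 93.5 CPM in WT mice and 111, 101, 121, 91.5 and 112 CPM in zQ175 mice. A single pair of mice overlapped, and the log2 fold change was 0.33 (SE 0.0809, edgeR adjusted p = 0.0819). Epha6 (ENSMUSG00000055540, chromosome 16, 59653483 to 60605531) is a receptor for ephrin-A ligands. Its levels were 43.0, 66.5, 38.2, 49.3 and 60.0 CPM in WT mice and 64.4, 72.0, 74.4, 59.6 and 92.5 CPM in zQ175 mice, and WT replicates 2 and 5 lay above the lowest zQ175 mouse. The log2 fold change was 0.50 (SE 0.129, edgeR adjusted p = 0.0946).

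Gm20754 (ENSMUSG00000103428, chromosome 3, 73066316 to 73594830) is a lincRNA of low abundance, with 630 counts over all libraries. It stood at 1.00, 1.73, 1.29, 1.29 and 1.30 CPM in WT mice and at 3.70, 2.67, 3.44, 2.64 and 5.54 CPM in zQ175 mice, with no overlap. The log2 fold change was 1.44 (SE 0.361, edgeR adjusted p = 0.0845). In zQ175:CK2a'(+/-) mice it stood at 0.90, 1.79, 2.39, 1.11 and 0.78 CPM, below every zQ175 mouse, but this difference of 1.37 (SE 0.363) did not pass (edgeR adjusted p = 0.438). For 7 long genes each zQ175 mouse exceeded every WT mouse, among them Gm20754, Snhg14, Lama2, Lpp, Mir99ahg and Pcdh9, and none lay below, that is 3.08% of 227 without overlap against 2.44% of all genes tested in either direction. Of the 5 called genes, Snhg14 lost its call in 4 of the 18 fits that left out a single mouse, Clstn2 and Gm20754 in 7, Nav3 in 9 and Epha6 in 14. None of the 5 passed when WT replicate 1 or 3 or zQ175 replicate 1 or 5 was left out, when both of these zQ175 replicates were, or when the fit held only the WT and zQ175 libraries. Without zQ175 replicate 1, Csmd2 and Lrrtm4 passed instead.

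**Figure D3:**
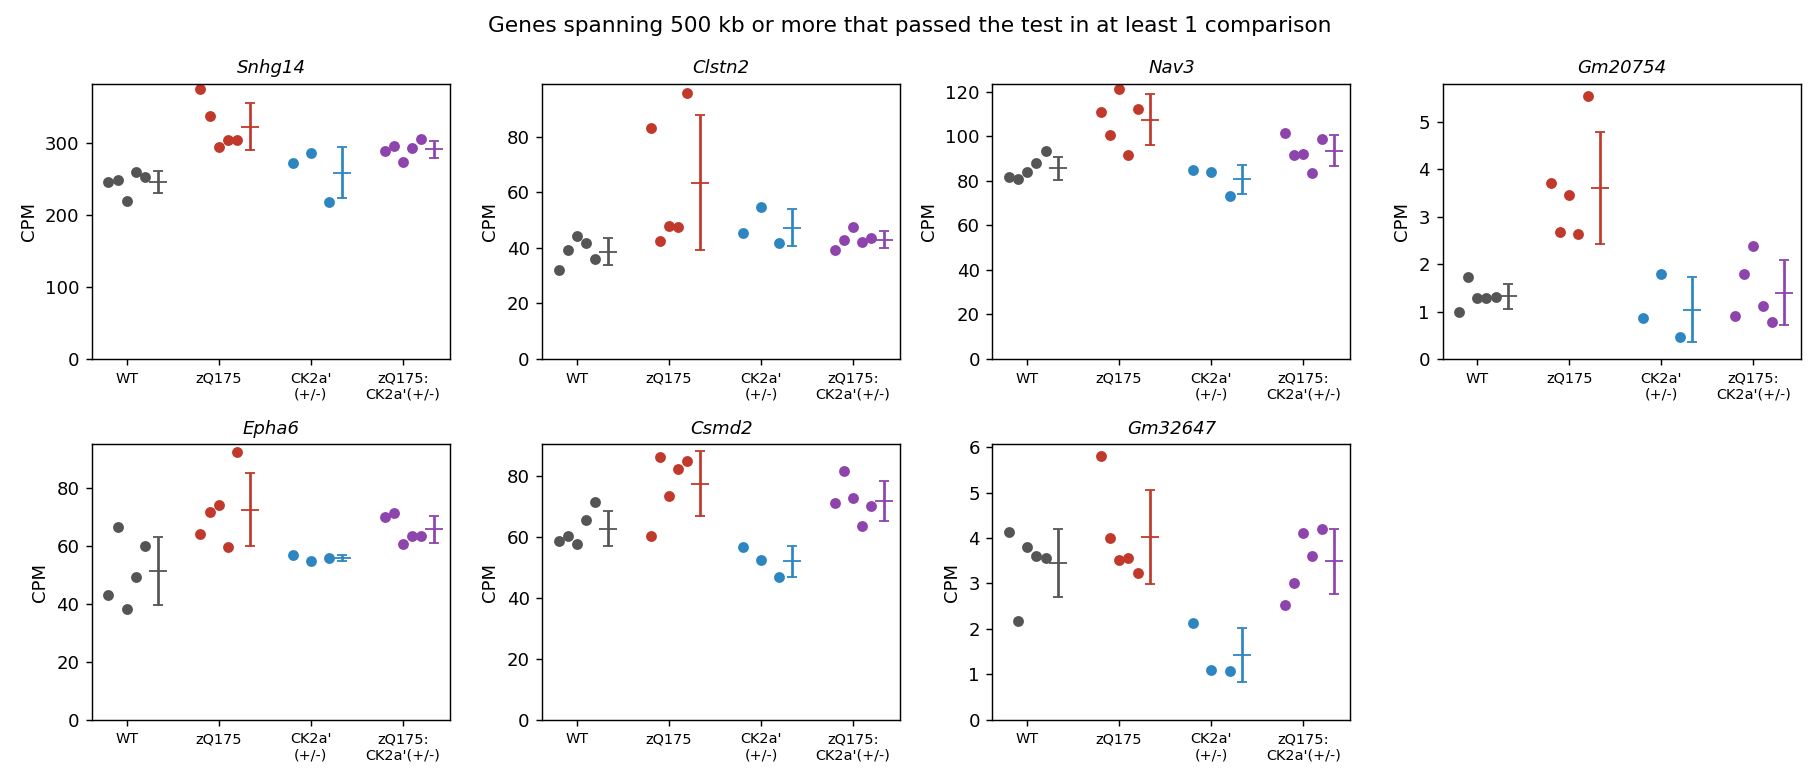
CPM of the 7 long genes that passed the test in at least 1 comparison, with a point for each mouse and the group mean ± SD beside them. Axes start at 0, and zQ175 mice of Snhg14 (295 to 375 CPM) and Gm20754 (2.64 to 5.54 CPM) stood above all WT mice.

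The long genes were also grouped by role for zQ175 against WT. In that fit 1.1% of all genes tested were called, with 0.387% of all genes called higher in zQ175. Of the other genes tested, 50.3% lay above 0. The role lists are too short for their few calls to be told apart from that share. Among the 50 long genes of cell adhesion and synapse organization, 1 rose (Clstn2), 0 fell, and 39 lay above 0 with a median log2 fold change of 0.14. Nrxn3, a presynaptic neurexin that binds neuroligins, stood at 332 ± 37.0 CPM in WT and 341 ± 38.3 CPM in zQ175 (SD, n = 5 each), a log2 difference of 0.035 (SE 0.0820). Pcdh9, a protocadherin, had a log2 fold change of 0.32 (SE 0.122), Lsamp, a GPI-anchored adhesion protein of the limbic system, 0.25 (SE 0.0924) and Lrp1b, a receptor of the LDL receptor family, 0.21 (SE 0.0740), and none of these passed. Cntnap2, which gathers potassium channels beside the node of Ranvier, stood at 151 ± 13.3 CPM in WT and 147 ± 6.45 CPM in zQ175 (SD, n = 5 each).

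The 7 long receptors for glutamate and GABA were divided, with 0 called, 3 above 0 and a median of -0.051. Grm5, the metabotropic receptor mGluR5 and one of the long genes of highest level per length (34.0 RPKM), stood at 353 ± 90.1 CPM in WT and 332 ± 61.5 CPM in zQ175 mice. Grik2, a kainate receptor subunit, had a log2 difference of -0.15 (SE 0.114). None of the 18 ion channels and channel subunits passed, with 12 above 0 and a median of 0.14. Kcnma1, the BK potassium channel, stood at 244 ± 19.1 CPM in WT and 298 ± 31.2 CPM in zQ175 (SD, n = 5 each), a log2 difference of 0.29 (SE 0.0867) that missed the threshold by edgeR (adjusted p = 0.139). Ryr3, a calcium release channel, and Kcnd2, a subunit of A-type potassium channels, had differences of -0.064 (SE 0.124) and -0.046 (SE 0.0888).

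Of 30 scaffolds, cytoskeletal proteins and parts of the release machinery, 1 rose (Nav3), 0 fell and 24 lay above 0, with a median of 0.12. The highest level per length of all 227 belonged to Syt1 (76.2 RPKM), the calcium sensor of transmitter release, at 621 ± 21.8 CPM in WT and 695 ± 65.2 CPM in zQ175 mice (SD, n = 5 each). Its log2 difference was 0.16 (SE 0.0726) and did not pass by edgeR (adjusted p = 0.322). Syne1, Ank3 and Ank2, a nesprin and 2 ankyrins that tie membranes to the cytoskeleton, differed by 0.11 (SE 0.0764), 0.014 (SE 0.0713) and 0.19 (SE 0.0744). Among 22 guidance and growth factor signalling genes, 1 rose (Epha6), 0 fell and 15 lay above 0, with a median of 0.061. The slit receptors Robo1 and Robo2 and the neurotrophin-3 receptor Ntrk3 had differences of 0.067 (SE 0.0710), 0.055 (SE 0.117) and -0.033 (SE 0.133).

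Cyclic nucleotide, calcium and G protein signalling held 12 long genes, of which 0 passed and 7 lay above 0 (median 0.11). Dgkb and Plcb1, a diacylglycerol kinase and a phospholipase C that is activated by Gq, stood lower in the means of zQ175 mice, by -0.25 (SE 0.180) and -0.13 (SE 0.156), but varied widely between mice, Dgkb at 420 ± 133 CPM in WT (SD, n = 5). The 15 transcription and RNA-binding factors had the highest median of the protein-coding roles, 0.23 with 12 above 0, again with 0 called. Zbtb20, a zinc finger repressor, stood at 410 ± 66.7 CPM in WT and 492 ± 118 CPM in zQ175 (SD, n = 5 each), and Foxp1, a forkhead factor of projection neurons, at 366 ± 106 and 322 ± 62.7 CPM. Rbfox1, a neuronal splicing factor at 56.1 RPKM, differed by -0.12 (SE 0.104). Without WT replicate 2 several log2 differences below 0 came closer to it, at -0.041 for Grik2, -0.034 for Rbfox1, -0.013 for Foxp1 and -0.049 for Dgkb. Of 20 enzymes and fragile-site genes 0 passed and 14 lay above 0 (median 0.094), and of 53 other long genes 2 passed (Snhg14 and Gm20754) and 40 lay above 0 (median 0.14). The 12 long genes on the X chromosome had 10 above 0 and a median of 0.25, with 0 called, and the sexes were not divided evenly over the groups. One of them, Dmd, which codes for dystrophin over 2257271 bases, stood at 143 ± 24.5 CPM in WT and 176 ± 17.0 CPM in zQ175 (SD, n = 5 each). Fgfr2, of largest span, stood at 68.5 ± 11.5 and 57.5 ± 5.52 CPM.

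**Figure D4:**
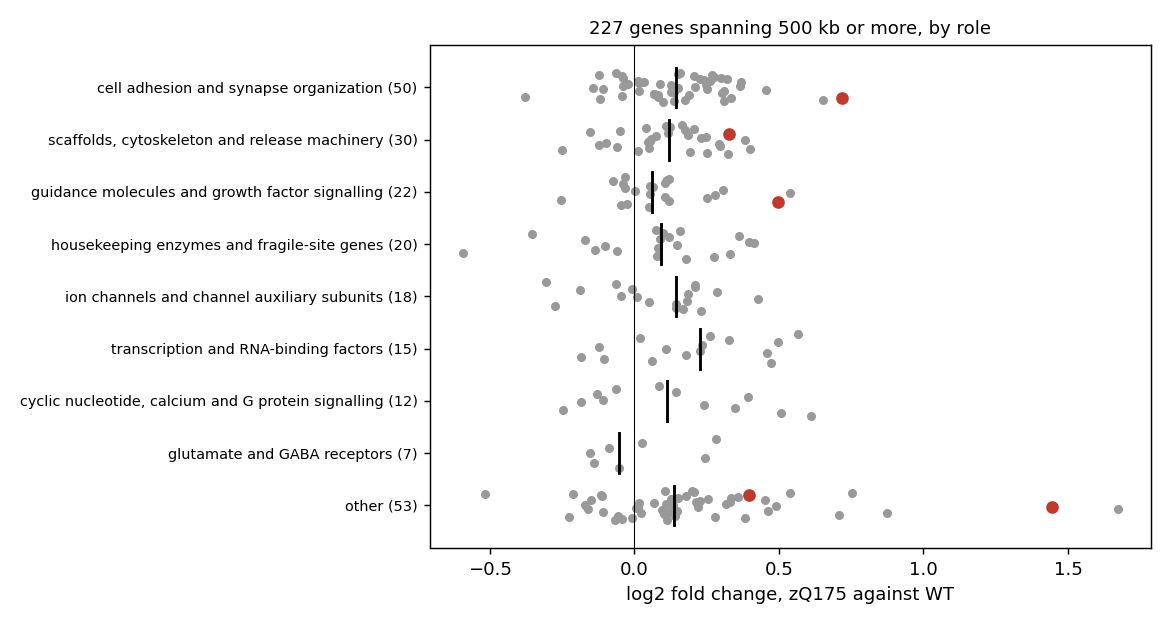
The log2 fold change of zQ175 against WT is shown for each of the 227 long genes as a point, grouped by role with the number of genes in brackets. Red points passed the test (5 genes), black bars are medians, and glutamate and GABA receptors had the lowest median (-0.051).

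Introns of the long genes could be read indirectly, through 1362 annotated features that lay wholly inside 218 of them without touching their exons. Most were unspliced models of the kinds that intronic reads can fill, namely TEC entries (experimentally unresolved transcripts), sense intronic transcripts and processed pseudogenes. On the strand of the host gene, 491 features of these kinds had a median of 767 counts over all libraries, and on the opposite strand 202 had a median of 4 counts, as when counting keeps the strands apart. In zQ175 against WT, 412 same-strand features were tested, 7 rose and 0 fell. The same fit called 1.1% of all genes tested, with 0.387% of all genes called higher in zQ175. Of the 412 features, 311 (75.5%) lay above 0 with a median log2 fold change of 0.24. Of 25 opposite-strand features tested, 0 passed and 14 lay above 0, with a median of 0.082. Features of the same kinds elsewhere in the genome, 3060 of them, had a median of 0.11 with 59.3% above 0, and 21 rose and 3 fell. In zQ175:CK2a'(+/-) against WT the same-strand features had a median of 0.16 with 0 called. In CK2a'(+/-) against WT they had a median of 0.14 with 0 called. Of all genes tested, 0.0143% were called in each of these comparisons.

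The nested features lay further above 0 than the exons around them. Over the 132 long genes with at least 1 tested same-strand feature, the median of the nested log2 fold changes was 0.22, against 0.11 for the exons of the same genes, and 86 of 132 had the same sign in both. Over the 44 genes with 3 or more such features the medians were 0.25 and 0.12, and Spearman's rho across genes was 0.66, a description of genes that share libraries. Of the 5 hosts with the most nested features, the groups overlapped in 4. Kcnip4, a potassium channel-interacting protein with 24 of them, stood at 211 ± 24.4 CPM in WT and 300 ± 69.2 CPM in zQ175 mice for those features together, with a log2 fold change of 0.18 (SE 0.154) for its exons. Cntnap2, with 23 features, stood at 155 ± 35.8 and 156 ± 19.4 CPM, Adgrb3, an adhesion G protein-coupled receptor with 20, at 250.5 ± 53.5 and 295 ± 34.7 CPM, and Dlg2, a postsynaptic scaffold with 19, at 270.1 ± 60.9 and 298 ± 73.9 CPM. Ank2, the fifth with 12, stood at 83.3 ± 6.36 and 110 ± 6.68 CPM without overlap. Per 100 exonic counts of their 151 hosts, same-strand nested features had 13.0, 13.2, 11.9, 12.9 and 12.0 counts in WT mice and 14.1, 15.1, 13.5, 13.8 and 13.4 in zQ175 mice. All 5 zQ175 mice lay above all 5 WT mice on this ratio. It was 13.5, 13.3 and 12.5 in CK2a'(+/-) mice and 13.3 to 14.6 in zQ175:CK2a'(+/-) mice, so that the latter also stood above every WT mouse.

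**Figure D5:**
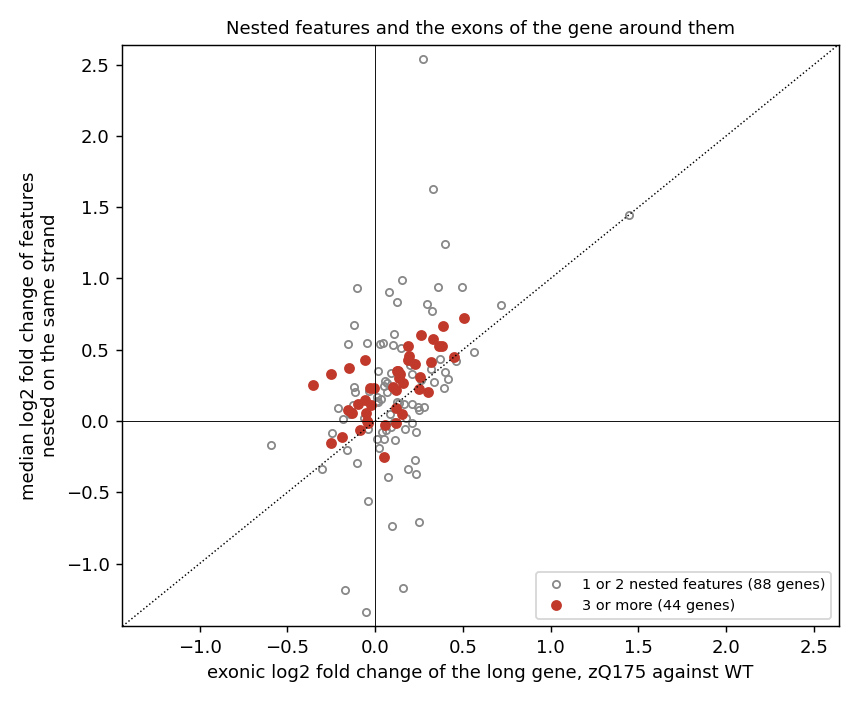
Each point is 1 of 132 long genes, with the log2 fold change of its exons in zQ175 against WT on the horizontal axis and the median of its same-strand nested features on the vertical axis. Filled points are the 44 genes with 3 or more features, and the dotted line marks equal change.

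The comparison of zQ175:CK2a'(+/-) with WT asked what differs in the disease model with 1 allele of Csnk2a2 fewer. By DESeq2 0 of 222 long genes tested passed, against 0.725% of all genes it tested. By edgeR 0 of 227 passed, against 0.0143% of all genes tested. An unadjusted p under 0.05 was found for 25 (11.0%), against 9.13% of all genes and 11.3% of the other genes in the same count bands. The median log2 fold change was 0.031, with 135 (59.5%) above 0, and the other genes in the same count bands had a median of -0.0028 with 49.2% above 0. This median was 0.0036 without WT replicate 1, 0.057 without zQ175:CK2a'(+/-) replicate 4 and -0.0054 without the 4 mice of high choroid plexus markers. The 3 long genes of smallest p were Snhg14, Lama2 and Pcdh11x. Lama2, a laminin chain of the basement membrane, stood at 30.8 ± 4.74 CPM in WT and 39.5 ± 5.47 CPM in zQ175:CK2a'(+/-) mice (SD, n = 5 each), and the X-linked protocadherin Pcdh11x at 44.8 ± 4.95 and 56.8 ± 4.99 CPM. Snhg14 and Frmd4a were the 2 long genes without overlap between these groups (0.881% of 227 against 1.84% of all genes).

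The comparison of zQ175 with zQ175:CK2a'(+/-) mice asks what the Csnk2a2 allele changes within the disease model. By DESeq2 0 of 227 long genes passed, against 0.145% of all genes it tested. By edgeR 0 of 227 passed, against 0.0143% of all genes tested. At an unadjusted p under 0.05 lay 33 (14.5%), against 6.27% of all genes and 6.41% of the other genes in the same count bands. The median was 0.064 in the direction of zQ175, with 145 (63.9%) above 0, and 52.1% above 0 among other genes in the same count bands. Besides Gm20754, the smallest p values belonged to Ptprg, a receptor-type tyrosine phosphatase, at 67.4 ± 10.4 CPM in zQ175 and 52.1 ± 4.22 CPM in zQ175:CK2a'(+/-) mice, and to Sorcs3, a sorting receptor, at 29.5 ± 4.53 and 19.9 ± 2.96 CPM (SD, n = 5 each). The 4 genes without overlap were Gm20754, Mir99ahg, Sorcs3 and Syt1, all higher in zQ175 (1.76% of 227 against 1.14% of all genes). Both comparisons share the zQ175:CK2a'(+/-) mice, and both comparisons with WT share the WT mice. In zQ175 against zQ175:CK2a'(+/-) all 9 cortical excitatory neuron markers lay above 0 and 1 passed. Their summed level was 259 ± 99.8 CPM in zQ175 and 140 ± 36.5 CPM in zQ175:CK2a'(+/-) mice (SD, n = 5 each). All 7 oligodendrocyte markers, all 5 choroid plexus markers and 11 of 13 projection neuron markers lay below 0, with 0 called. The part of cell content in this comparison was not tested.

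Without the disease allele, CK2a'(+/-) against WT gave 0 calls among the long genes by DESeq2, against 0.0293% of all genes it tested. By edgeR there were also 0, against 0.0143% of all genes tested. Of the 227, 7 (3.08%) had an unadjusted p under 0.05, against 4.48% of all genes and 5.13% of the others in the same count bands. The median was 0.047 with 136 (59.9%) above 0, in a group of 3 mice, and the other genes in the same count bands had a median of 0.0058 with 51.4% above 0. In zQ175:CK2a'(+/-) against CK2a'(+/-), which asks what the zQ175 allele changes in mice with 1 Csnk2a2 allele, 2 of 227 long genes rose (0.881%, against 0.593% of all genes and 1.03% of the other genes in the same count bands), while the median was -0.0045 and 112 lay above 0. An unadjusted p under 0.05 was found for 24 (10.6%), against 9.19% of all genes and 12.7% of the others in the same count bands. Csmd2, a large membrane protein with CUB and sushi domains, stood at 56.8, 52.4 and 46.7 CPM in CK2a'(+/-) mice and at 71.2, 81.5, 72.7, 63.4 and 70.1 CPM in zQ175:CK2a'(+/-) mice. The groups did not overlap, and the log2 fold change was 0.47 (SE 0.115, edgeR adjusted p = 0.0989). Against WT, zQ175 mice differed for Csmd2 by 0.30 (SE 0.0977), which did not pass (edgeR adjusted p = 0.161). Gm32647, a lincRNA, stood at 2.12, 1.09 and 1.07 CPM in CK2a'(+/-) mice and at 2.53, 3.01, 4.10, 3.61 and 4.21 CPM in zQ175:CK2a'(+/-) mice, a log2 fold change of 1.28 (SE 0.311, edgeR adjusted p = 0.0989). WT mice stood at 2.18 to 4.14 CPM. Neither gene passed when WT replicate 1 or 3, zQ175 replicate 2, 3 or 4, CK2a'(+/-) replicate 2 or 3, or any 1 of the zQ175:CK2a'(+/-) mice was left out, nor without the 4 mice of high choroid plexus markers.

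The interaction tests whether the difference made by zQ175 is itself different in mice with 1 Csnk2a2 allele. By DESeq2 it was passed by 0 of 223 long genes tested, against 0.103% of all genes it tested. By edgeR it was passed by 0 of the 227 genes, against 0.00478% of all genes. The unadjusted p was under 0.05 for 18 (7.93%), against 5.39% of all genes and 5.28% of the others in the same count bands. Its median was -0.11, with 66 of 227 (29.1%) above 0, against 46.3% among other genes in the same count bands. The smallest p values belonged to Cacna1c, an L-type calcium channel (-0.50, SE 0.140), Clstn2 (-0.86, SE 0.266) and Cntnap5b, a contactin-associated protein (-0.55, SE 0.181), with edgeR adjusted p of 0.811 to 0.832.

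A list of 40 genes was chosen by function, among them topoisomerases, elongation factors, RNA-binding proteins and chromatin proteins. In zQ175 against WT 1 of the 40 rose and 0 fell, in a fit that called 1.1% of all genes tested. Of the 40, 26 lay above 0, with a median of 0.058. None of the 40 passed in zQ175:CK2a'(+/-) against WT or between zQ175 and zQ175:CK2a'(+/-) mice, where 0.0143% of all genes did in each. By DESeq2, whose calls in zQ175 against WT took in 5.26% of the 16263 genes it tested, 16 of the 227 long genes passed, 15 higher and 1 lower, among them the 5 called by edgeR.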

How the data were processed

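Total RNA of striatum was sequenced from 18 mice with a strand-preserving library kit. Per the labels, the authors' processing notes name FastQC and Trimmomatic, HISAT2 2.1.0 for alignment, Subread 1.6.2 for counting and the build GRCm38. The deposited table holds raw counts per gene together with exon positions and exonic length, and the deposited length column gives summed exon bases. The authors' strand setting was not given in the sources used here. Each column was mapped to its group and replicate by name. Genes were members when their span and summed counts reached 500000 bases and 100. The members, the role lists and the tests were chosen with earlier results of these data known.

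Counts were filtered with filterByExpr, which left 20914 genes and all 227 members, and scaled by TMM. The edgeR 4.0.16 quasi-likelihood test in R 4.3.3 was fitted to all 18 libraries with genotype as the only term, and p-values were adjusted by Benjamini-Hochberg over all genes tested. An adjusted p under 0.1 was called. Where nothing states separate litters or days, p-values measure the spread between these mice. CPM (counts per 1000000) used the TMM library sizes, and RPKM divided CPM by exonic length. The others' values in the same count bands were weighted over 5 bands of mean log2 CPM. DESeq2 1.42.0 with default settings, other filters and scalings, each mouse left out, only the compared groups, replicate block, Xist as covariate and other spans were the alternatives. Leaving out the mice set apart by cortical or choroid plexus markers was added after the data were seen. Both tests were checked on simulated counts. Named genes were those called, or the 3 of smallest p where none was, the 10 of largest span, the 10 of highest RPKM, the 3 of highest mean count in each role, and the 3 nearest the span limit. Genes named as not overlapping between groups, nested hosts and genes named only for an alternative were chosen after their values were seen. Symbols came from the GENCODE M21 annotation, in which 223 of the 227 members had the same position, and promoters from RefSeq for GRCm38.p6. Dpp10, Pde1c, Nrg1 and Rbms3 had another position there. A few genes that entered the fits and the counts are not reported here by name.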

Additional observations from a re-analysis of the deposited data

Results flagged for a closer look

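Of 165 sets of values in groups of 5 mice, 16 held a mouse set apart by Dixon's test at the 95% level. The gap of such a mouse to its neighbour was too large a part of the group's range. Chance gives about 1 in 20 for independent sets, but these sets came from the same mice and are not independent. WT replicate 2 gave 8 of the 16. Its median offset over the long genes was 0.063 on the log2 scale against -0.11 to -0.066 in the other WT mice, and it was the highest WT mouse for Dlg2 (622 CPM), Csmd1 (208 CPM), Nrxn3 (397 CPM), Syt1 (658 CPM), Cadm2 (356 CPM), Kcnd2 (212 CPM) and Celf2 (610 CPM). The same mouse had the highest summed level of projection neuron markers in WT (7682 CPM). zQ175 replicate 1, which had the lowest summed projection neuron markers (1776 CPM), was lowest of its group for Grm5 (225 CPM) and highest for Mast4 (187 CPM). The part of cell content in these values was not tested.

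The other 6 were single values. Fgfr2 was high in WT replicate 3 (88.6 CPM), Dock1 low in WT replicate 1 (60.5 CPM), Grm7 high in zQ175 replicate 3 (123 CPM) and Cntnap2 low in zQ175 replicate 5 (136 CPM). Among zQ175:CK2a'(+/-) mice, Ptprg was high in replicate 1 (59.6 CPM) and Kcnd2 low in replicate 2 (151 CPM).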

How the results depend on the processing

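The median log2 fold change of the long genes in zQ175 against WT stayed between 0.085 and 0.14 over all alternatives, with 151 to 179 genes above 0 in the fits that tested these genes, while the number of calls did not hold. Each count is followed by the share of all genes that the same fit called. Against the 5 calls reported (1.1% of all genes), DESeq2 gave 16 (5.26%), no filter on low counts 8 (1.2%), an adjusted p under 0.05 gave 1 (0.244%), the Xist covariate 1 (0.77%), and a fit of only the compared groups 0 (0%). With both zQ175 mice of highest cortical markers left out the count was 0 (0%), and with the 4 mice of high choroid plexus markers left out it was 0 (0.00469%). A span of 250000 bases or more gave 15 calls among 732 genes and 1000000 bases or more gave 0 among 58, both in the reported fit (1.1%). Leaving out 1 mouse gave 0 to 9 (0% to 2.82%). There were 0 without WT replicate 1 (0.048%), WT replicate 3 (0%) or zQ175 replicate 5 (0%) and 9 without WT replicate 2 (2.82%). Calls among all genes moved alike, from 230 to 10, 0 and 0 without those 3 mice and to 587 without WT replicate 2. In zQ175:CK2a'(+/-) against CK2a'(+/-), where 2 were called (0.593%), DESeq2 gave 4 (1.47%) and no filter 4 (0.79%). A filter of 10 counts in 10% of libraries gave 1 (0.548%), only the compared groups 11 (2.43%) and the Xist covariate 1 (0.359%). The robust fit gave 1 (0.421%) and an adjusted p under 0.05 gave 0 (0.129%). Spans of 250000 and 1000000 bases gave 4 and 0, both in the reported fit (0.593%). The omission of the cortical or choroid plexus mice gave 5 (1.07%) and 0 (0.0657%), and leaving out 1 mouse 0 to 4 (0.0276% to 1.06%). Between zQ175 and zQ175:CK2a'(+/-) 1 gene passed without a filter (0.136%). The medians of the comparisons other than zQ175 against WT also moved. In CK2a'(+/-) against WT the median of 0.047 became -0.018 without the 4 mice of high choroid plexus markers and 0.011 to 0.071 without 1 mouse. That of zQ175:CK2a'(+/-) against WT, 0.031, became -0.0054 and 0.0036 to 0.057, and in zQ175:CK2a'(+/-) against CK2a'(+/-) that of -0.0045 became 0.0037 and -0.038 to 0.020, in the same order. Between zQ175 and zQ175:CK2a'(+/-) it stayed between 0.048 and 0.079. The cause of these changes was not tested.

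Replicate numbers are shared between groups, but 2 of 24 same-numbered pairs had correlated deviations over 0.1 (r of -0.14 to 0.12), so the numbers were not taken as pairs. With replicate number as a block, 1 long gene passed in zQ175 against WT (Snhg14, with 0.469% of all genes called) and 0 in zQ175:CK2a'(+/-) against CK2a'(+/-) (0.0574%). The share of counts on long genes was 7.05%, 7.38%, 7.53% and 7.28% in WT, zQ175, CK2a'(+/-) and zQ175:CK2a'(+/-) mice with a span of 250000 bases or more, 0.531%, 0.560%, 0.552% and 0.553% with 1000000 bases or more, and 3.18%, 3.44%, 3.37% and 3.37% of counts outside mitochondrially encoded genes. Of 54 named genes, 16 near 0 changed sign in zQ175 against WT when 1 mouse was left out, and another 21 kept their sign but moved by over 1.5 times. The log2 fold changes of the 16 ranged from -0.035 to 0.059 for Ank3, -0.0021 to 0.19 for Celf2, -0.13 to 0.096 for Dlg2, -0.053 to 0.056 for Dock1, -0.045 to 0.20 for Edil3, -0.13 to 0.065 for Galnt13, -0.16 to 0.065 for Grm5, -0.089 to 0.13 for Grm7, -0.096 to 0.051 for Kcnd2, -0.018 to 0.096 for Nrxn3, -0.11 to 0.10 for Ntrk3, -0.21 to 0.0098 for Plcb1, -0.096 to 0.0049 for Ptprd, -0.021 to 0.15 for Robo2, -0.14 to 0.076 for Ryr3 and -0.030 to 0.19 for Tmem132d. Low-count genes such as Gm20754, at 1.32 CPM on average in WT mice, rest on few counts.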
